A study of Mus musculus with 12 samples.

Results

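The genes described here are 8 genes that mark cardiac nerves and the Schwann cells that run with them, Stmn2, Stmn3, Tubb3, Prph, Elavl3, Elavl4, Sox10 and Ngfr. They were taken by symbol from a table of read counts for 40800 genes, with no count filter, and each was found under 1 gene identifier. The genes were chosen with earlier results of these data known. The table covers bulk RNA-seq of ventricles from mouse hearts at embryonic day 12.5, with 6 Wnt gain-of-function libraries (genotype "wnt gof" in the labels, Wnt GOF below) and 6 control libraries. The labels give no allele, Cre driver, strain or number of embryos per library, and do not say what the controls carry, so the cells in which Wnt signalling was activated are not known from them. The p-values therefore measure the spread from library to library, which may be technical, since no label says that each library came from its own animal.

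The heart receives its parasympathetic and sympathetic nerves from the neural crest. Crest cells and Schwann cell precursors travel to the heart along the vagus nerve and settle as cardiac ganglia, mostly around the great arteries and on the atria, and sympathetic axons later follow vessels over the ventricular surface. Neurons are recognised by proteins of the growing axon and by RNA-binding proteins of the Hu family, and the glial lineage by the transcription factor Sox10 and the neurotrophin receptor Ngfr.

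Libraries held 12127026 to 17184662 counts in Wnt GOF ventricles and 10130088 to 17526325 in control ventricles, and of these the 8 genes together took 254 to 433 and 193 to 492 counts. Levels are given in CPM, counts scaled to a common library size. The 8 ventricular cardiomyocyte markers all passed the count filter and summed to 19400 to 25500 CPM in Wnt GOF libraries and 19800 to 26800 CPM in control libraries. Axin2, a direct target of canonical Wnt signalling, lay between 14.9 and 26.0 CPM in 5 Wnt GOF libraries and between 1.39 and 4.13 CPM in control libraries. The library labelled Wnt GOF replicate 5 had 3.77 CPM of Axin2, within the control range, so calls of named genes that change without it are given both ways. Across both groups the libraries also fell into 3 sets of 4, each with 2 Wnt GOF and 2 control libraries, when clustered by their deviations from the group means. The labels name no batch that these sets could be. By set, the ventricular cardiomyocyte markers summed to 25400 to 26800 CPM in set 1, 20900 to 22600 in set 2 and 19400 to 23600 in set 3. Summed atrial markers were 2790 to 3790 CPM in set 1, 4320 to 4950 in set 2 and 4450 to 5400 in set 3. Most of the atrial sum came from Myl4 (mean 2220 CPM in Wnt GOF and 1900 CPM in control libraries) and Myl7 (1910 and 2030 CPM). The cause of the differences between sets was not tested.

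Several markers that define autonomic neurons and their glia were barely detected. Chat, the acetylcholine-synthesising enzyme of parasympathetic neurons, had a count in 1 library of each group, and Th, the first enzyme of noradrenaline synthesis, had 0 to 6 counts in Wnt GOF libraries and 1 to 6 in control libraries. Sox10 itself had 7 counts over all Wnt GOF libraries and 6 over all control libraries. These markers, of which Chat and Th were picked with their values in view, were thus at or near 0, and the values below are transcript levels in whole ventricle rather than levels in identified neurons. In bulk tissue, fewer cells of a type and less RNA per cell cannot be told apart.

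The stretch of 250 bases before the annotated start was searched on both strands in RefSeq promoters of GRCm38.p6, in which 6 of the 8 genes were found (Stmn2 and Sox10 were not). The motifs were CTTTGAT and also CTTTGAA (bound by TCF/LEF factors, and alike in their first 6 letters), the E-boxes CAGCTG and also CAGATG (bound by proneural and other basic helix-loop-helix factors), ACAAAG (bound by Sox factors) and CAGCACC (part of the RE1 element bound by the neuronal gene repressor REST). Of 32851 promoters, 3.205% held CTTTGAT, 4.456% CTTTGAA, 13.001% CAGCTG, 14.444% CAGATG, 16.462% ACAAAG and 5.732% CAGCACC. The 4 sequences shown are those of Tubb3 and Ngfr, whose levels varied together, of Elavl4, whose level varied least, and of Stmn3, which held the TCF/LEF motif. Capitals mark the matches, read 5′ to 3′ on the strand of the gene.
Tubb3, chr8:123411303-123411552, plus strand: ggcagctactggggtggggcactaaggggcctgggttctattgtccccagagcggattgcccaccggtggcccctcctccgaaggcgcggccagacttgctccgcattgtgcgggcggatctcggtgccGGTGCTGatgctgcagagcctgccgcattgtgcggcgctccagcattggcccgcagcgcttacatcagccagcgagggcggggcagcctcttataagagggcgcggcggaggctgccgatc
Ngfr, chr11:95587699-95587948, minus strand: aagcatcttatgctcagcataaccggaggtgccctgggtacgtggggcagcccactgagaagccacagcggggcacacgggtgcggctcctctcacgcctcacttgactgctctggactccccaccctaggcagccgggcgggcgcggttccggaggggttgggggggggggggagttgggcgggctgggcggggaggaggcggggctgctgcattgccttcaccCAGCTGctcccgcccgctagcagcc
Elavl4, chr4:110287528-110287777, minus strand: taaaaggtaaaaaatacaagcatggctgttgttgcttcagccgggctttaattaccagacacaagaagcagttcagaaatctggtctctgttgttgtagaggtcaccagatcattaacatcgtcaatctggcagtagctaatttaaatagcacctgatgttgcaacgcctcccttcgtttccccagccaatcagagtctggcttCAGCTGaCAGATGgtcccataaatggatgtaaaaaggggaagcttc
Stmn3, chr2:181314501-181314750, minus strand: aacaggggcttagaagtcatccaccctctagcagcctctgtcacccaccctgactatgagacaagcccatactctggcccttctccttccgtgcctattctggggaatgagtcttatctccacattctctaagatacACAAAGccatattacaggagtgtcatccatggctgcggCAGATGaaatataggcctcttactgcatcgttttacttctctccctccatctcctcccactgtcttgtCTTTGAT
Tubb3 held GGTGCTG, the reverse complement of CAGCACC, and Ngfr held CAGCTG. This Elavl4 start held CAGCTG followed shortly by CAGATG, and other listed starts of Elavl4 differed, from no match to the same pair. Elavl3 held CAGCTG, Prph held none of the motifs, and Stmn3 held CAGATG, a Sox motif (ACAAAG) and, in its last bases, CTTTGAT. A match describes the letters only.

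Between Wnt GOF and control ventricles, 0 of the 5 genes that passed the filter on low counts (Stmn2, Tubb3, Elavl3, Elavl4 and Ngfr) passed edgeR's quasi-likelihood test at a Benjamini-Hochberg adjusted p under 0.05, against 0.501% of all 14774 genes tested. DESeq2 called 0 of the 8 members, against 0.930% of its 20746 genes, and limma-voom called 0, against 0.149% of the genes it tested. An unadjusted p under 0.05 was reached by Stmn2 alone, 1 of 5 members, against 6.30% of all tested genes. The groups overlapped in each of the 8 genes, where 0.460% of all tested genes showed no overlap. Of the 5 tested members 4 had a log2 fold change below 0, with a median of -0.07 against 0.00131 over all tested genes. Stmn3, Prph and Sox10 did not pass the filter, and their values come from a fit without it, in which 0.393% of 27743 genes were called and none of the 8.

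**Figure D1:**
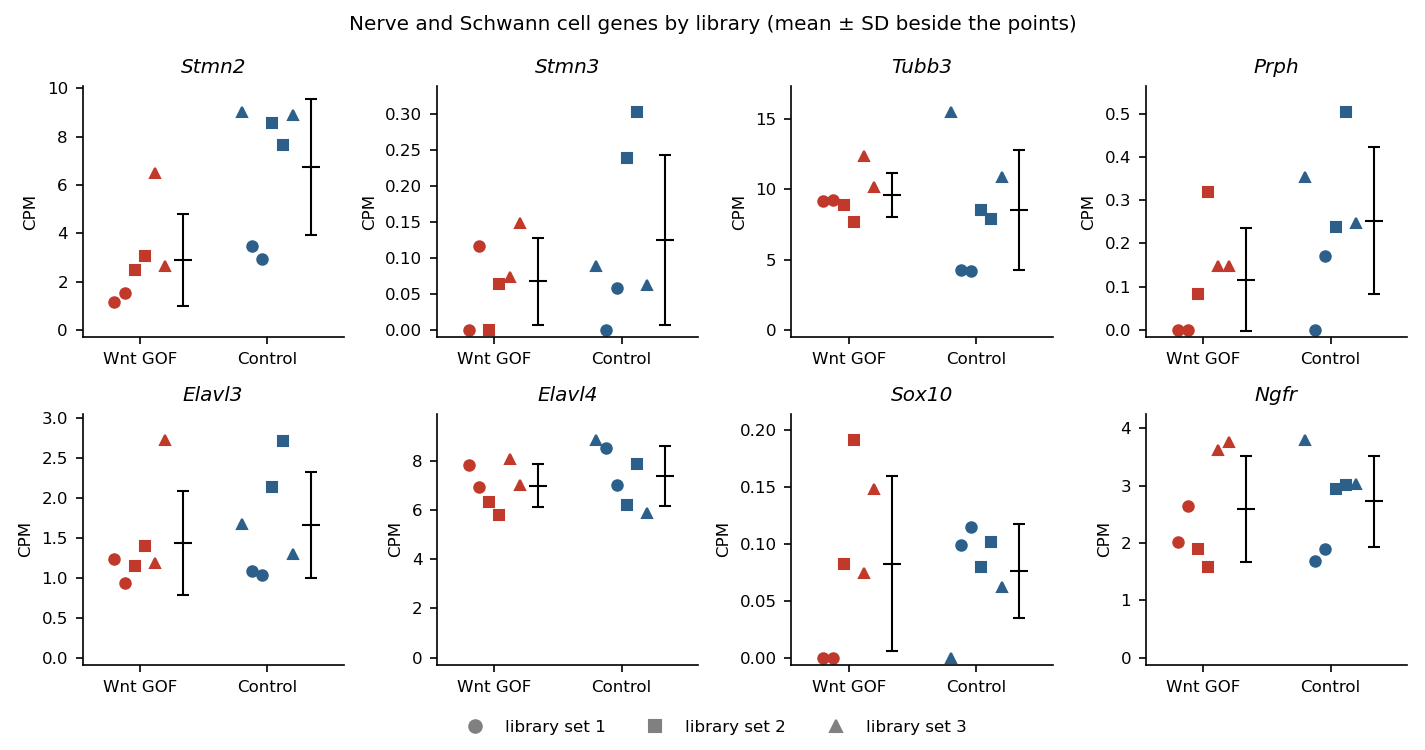
CPM of each of the 8 genes in every library, Wnt GOF in red and control in blue, with the marker shape giving the library set and the bars the mean ± SD of 6 libraries. Stmn2 is below the control median of 8.12 CPM in all 6 Wnt GOF libraries, Elavl4 lies between 5.80 and 8.85 CPM throughout, and Stmn3, Prph and Sox10 rest on 0 to 5 counts per library.

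Stmn2 encodes stathmin-2, a neuronal protein that binds tubulin dimers and is needed for axon growth and regeneration. Stmn2 (ENSMUSG00000027500) had 1.16 CPM in the lowest Wnt GOF library, a median of 2.56 and 6.51 CPM in the highest, against a lowest control value of 2.93, a median of 8.12 and a highest of 9.02 CPM. The means were 2.90 ± 1.91 CPM in Wnt GOF and 6.76 ± 2.81 CPM in control ventricles (SD, n = 6 each), a ratio of 0.429. All 6 Wnt GOF libraries lay below the control median and 4 of 6 below the lowest control library. The library labelled Wnt GOF replicate 5 was the highest of its group, and control replicates 2 and 3, at 3.47 and 2.93 CPM, were well below the other control libraries. The log2 fold change was -1.22 ± 0.396 (SE, 95% interval -2.0 to -0.45), with an unadjusted p of 0.00811 that ranked 316th of 14774 genes and an edgeR adjusted p of 0.378 (DESeq2 adjusted p = 0.0915). The authors' deposited table gives a log2 fold change of -1.28 for Stmn2, with an adjusted p of 0.368.

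The difference in Stmn2 had the same sign in each library set, and within no set did the groups overlap. In set 1 Stmn2 was at 1.16 to 1.52 CPM in Wnt GOF and 2.93 to 3.47 CPM in control libraries, a ratio of means of 0.420. In set 2 it was at 2.47 to 3.06 and 7.66 to 8.58 CPM (0.340), and in set 3 at 2.66 to 6.51 and 8.91 to 9.02 CPM (0.511). Over all tested genes, 2.96% likewise had no overlap in any set and the same sign in all 3. The pooled groups overlapped because the control libraries of set 1 lay below the library labelled Wnt GOF replicate 5, of set 3, and control replicate 3 also below Wnt GOF replicate 4, of set 2, at 3.06 CPM. With the sets as a block, Stmn2 fell (log2 fold change -1.23, edgeR adjusted p = 0.002), in a fit that called 2.00% of all genes. The sets were found in these same libraries, so that p can be too small. Without the library labelled Wnt GOF replicate 5, Stmn2 also fell (log2 fold change -1.63, edgeR adjusted p = 0.0286, with 1.19% of genes called). That library had the highest Stmn2 of its group, so leaving it out makes the fall larger. Without any 1 of the other libraries the edgeR adjusted p was 0.232 to 0.646. The 3 closest library pairs were Wnt GOF replicates 1 and 2, Wnt GOF replicates 3 and 4, and control replicates 2 and 3. They make up all of set 1 and the Wnt GOF libraries of set 2. Libraries of a pair may not be independent, so the lack of overlap there and the block p may rest on fewer samples. Summing these pairs left a like log2 fold change of -1.19. Its edgeR adjusted p was 0.98, in a fit that called 1 gene in all.

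**Figure D2:**
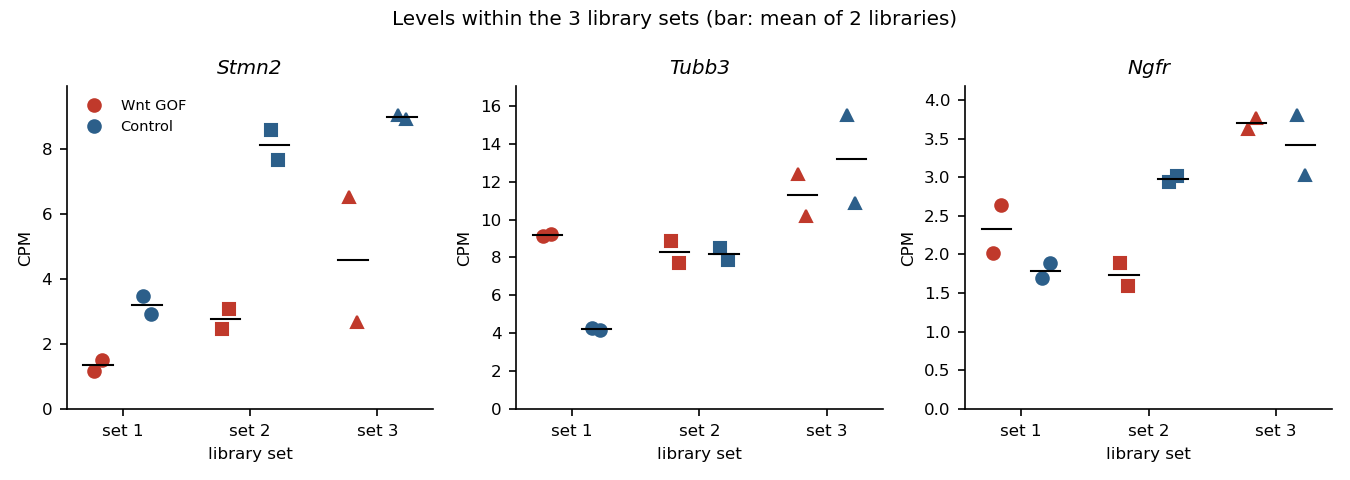
CPM of Stmn2, Tubb3 and Ngfr in each library set, Wnt GOF left of control, with bars at the mean of 2 libraries. Stmn2 is lower in Wnt GOF libraries of every set, while Tubb3 in set 1 is higher (9.21 against 4.23 CPM) and in set 3 lower (11.3 against 13.2 CPM).

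Stmn2 varied with the share of haemoglobin transcripts in the libraries. Haemoglobin genes took 1.26, 1.19, 3.77, 3.69, 8.73 and 1.45% of counts in Wnt GOF replicates 1 to 6 and 3.22, 1.03, 0.948, 6.53, 7.37 and 2.41% in control replicates 1 to 6. Deviations of Stmn2 and of summed haemoglobin from their group means, on the log2 scale, correlated with Pearson's r of 0.85 (permutation p = 0.00054, 0.0027 after adjustment over the 5 tested members) and Spearman's rho of 0.77 (permutation p = 0.00505, adjusted 0.0252; n = 12). The permutations shuffled all 12 libraries freely, although these fell into sets, so the permutation p-values can be too small. Without the 2 libraries farthest from the median haemoglobin level r was 0.74. For Tubb3, Elavl3, Elavl4 and Ngfr r lay between -0.09 and 0.49, and the smallest adjusted p of r was 0.262. With the means of each group within each set removed, r for Stmn2 and haemoglobin was 0.89, a value that rests on 6 pairs of libraries. Of these, Wnt GOF replicates 5 and 6 differed by far the most in haemoglobin (8.73 and 1.45% of counts), so the value rests largely on that pair. Control replicates 1 and 6 had 3.22 and 2.41%, control replicates 4 and 5 had 6.53 and 7.37%, and the remaining pairs were closer. With the haemoglobin level as a covariate, Stmn2 fell (log2 fold change -1.25, edgeR adjusted p = 0.0101; 0.792% of genes called). The covariate was added after the data were seen and follows the spread of Stmn2 within the groups, so that p can be too small. Summed markers of the outflow tract and second heart field, were 45.1 to 106 CPM in Wnt GOF and 48.7 to 130 CPM in control libraries. Their sums were 45.1 to 52.8 CPM in set 1, against 72.1 to 115 in set 2 and 67.7 to 130 in set 3. Their part in the Stmn2 result was not tested.

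**Figure D3:**
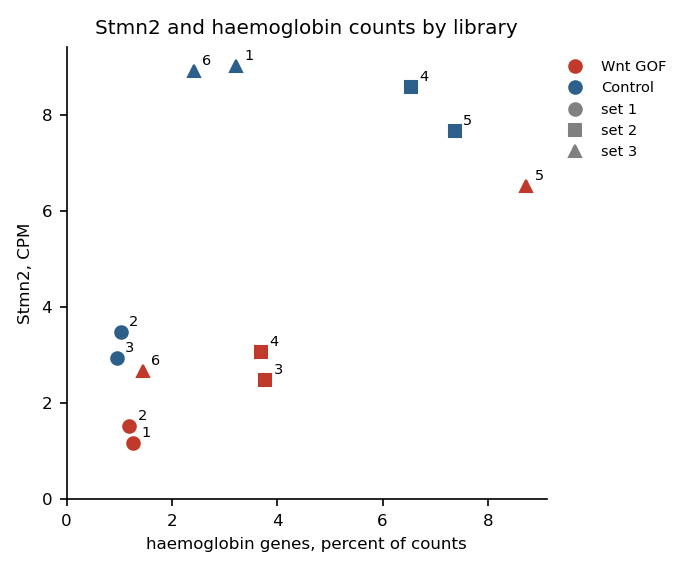
Stmn2 in CPM against the percent of counts from haemoglobin genes, 1 point per library with its replicate number, Wnt GOF in red and control in blue. Libraries of set 1 lie at the lower left with 0.948 to 1.26% haemoglobin, and at like haemoglobin the Wnt GOF points lie below the control points.

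Of the 4 stathmin genes 3 were tested and 0 called by edgeR, with a median of 0.39. For 2, Stmn2 and Stmn1, the unadjusted p was under 0.05, against 6.30% of all tested genes. Per kilobase of exon, Stmn1, expressed in dividing cells generally, made up 91.9 ± 1.89% of stathmin transcripts in Wnt GOF and 89.5 ± 4.37% in control ventricles, Stmn4 6.92 ± 1.22% and 7.28 ± 3.12%, and Stmn2 1.08 ± 1.08% and 2.97 ± 1.32% (SD, n = 6 each). Stmn1 was at 99.5 ± 19.6 CPM in Wnt GOF and 71.0 ± 7.16 CPM in control ventricles, at 0.49 ± 0.126 on the log2 scale (edgeR adjusted p = 0.161). Without the library labelled Wnt GOF replicate 5 Stmn1 rose (log2 fold change 0.59, edgeR adjusted p = 0.000643). DESeq2 called Stmn1 with all libraries (adjusted p = 0.0398), in a fit that called 0.930% of its genes. The neuronal gene Stmn4 was at 7.41 ± 1.82 and 5.7 ± 2.30 CPM (0.39 ± 0.250). Stmn3, which encodes a neuronal stathmin of the Golgi and axon, had 0, 2, 0, 1, 1 and 2 counts in Wnt GOF replicates 1 to 6 and 1, 0, 1, 3, 3 and 1 in control replicates 1 to 6. With 6 and 9 counts in all, its log2 fold change of -0.70 ± 0.834 (edgeR without a filter, adjusted p = 0.925) carries no direction.

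Tubb3, the beta-tubulin of neurons, was the most abundant of the 8 genes per kilobase, at 5.14 ± 0.842 CPM per kb in Wnt GOF and 4.57 ± 2.29 CPM per kb in control ventricles. Tubb3 (ENSMUSG00000062380) had 7.71 CPM in the lowest Wnt GOF library, a median of 9.21 and a highest of 12.4, against 4.19, 8.18 and 15.5 CPM in controls. The Wnt GOF libraries all lay inside the control range, and the coefficient of variation was 16.4% among them and 50.1% among control libraries, a difference that was not tested. Means were 9.59 ± 1.57 and 8.54 ± 4.28 CPM (SD, n = 6 each; log2 fold change 0.17 ± 0.270, 95% interval -0.36 to 0.70, edgeR adjusted p = 0.999). In set 1 the Wnt GOF libraries had 9.16 and 9.26 CPM and the controls 4.19 and 4.26 CPM, a log2 difference of 1.1, but sets 2 and 3 gave 0.02 and -0.21. Tubb3 made up 0.714 ± 0.121% and 0.658 ± 0.284% of beta-tubulin transcripts per kilobase, of which Tubb5, the broadly expressed form, took 71.1 ± 1.18% and 71.8 ± 2.72%. Of the 8 beta-tubulin genes 0 were called by edgeR, DESeq2 or limma-voom. Against 6.30% of all tested genes, 1 had an unadjusted p under 0.05. That was Tubb2a, at 0.36 (edgeR adjusted p = 0.261), which rose without the library labelled Wnt GOF replicate 5 (log2 fold change 0.43, adjusted p = 0.0288).

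Prph encodes peripherin, the intermediate filament of peripheral neurons. It had 0, 0, 1, 5, 2 and 2 counts in Wnt GOF replicates 1 to 6 and 4, 0, 3, 3, 5 and 4 in control replicates 1 to 6, or 10 and 19 in all. Wnt GOF replicate 4 and control replicate 5 shared the highest count, and both groups held libraries at 0. Its log2 fold change of -1.02 ± 0.718 (edgeR without a filter, adjusted p = 0.812) did not pass. Of the 9 intermediate filament genes 6 were tested and 0 called by edgeR, DESeq2 or limma-voom, with 0 at an unadjusted p under 0.05. Nefl, the light neurofilament subunit, stood at 2.13 ± 0.949 CPM per kb in Wnt GOF and 2.82 ± 0.354 CPM per kb in control ventricles, above Prph at 0.0581 ± 0.0597 and 0.126 ± 0.0848 CPM per kb. Vim, the filament of mesenchymal cells, took 77.6 ± 1.63% and 79.2 ± 1.20% of the family per kilobase.

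**Figure D4:**
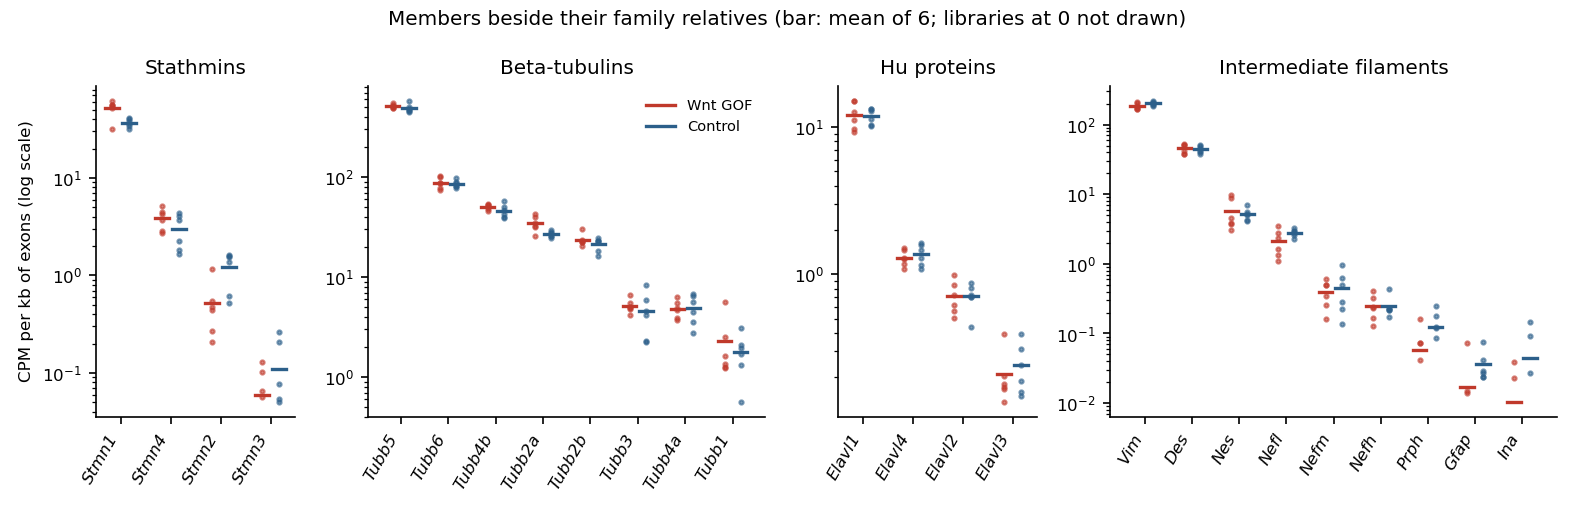
Levels of the stathmin, beta-tubulin, Hu and intermediate filament genes in CPM per kilobase of exon on a log axis, 1 point per library and a bar at the mean of 6, Wnt GOF in red left of control in blue; libraries at 0 are not drawn. The members lie well below Stmn1, Tubb5, Elavl1 and Vim, and Stmn2 averages 0.517 CPM per kb in Wnt GOF and 1.21 CPM per kb in control libraries.

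The Hu proteins bind AU-rich RNA and stabilise messages of differentiating neurons. Elavl4 (HuD, ENSMUSG00000028546) was the steadiest of the tested members, with 5.80 CPM in the lowest Wnt GOF library, a median of 6.96 and a highest of 8.07, against 5.88, 7.43 and 8.85 CPM in controls. Its highest library exceeded its lowest 1.53-fold, against 7.75-fold for Stmn2. The log2 fold change was -0.07 ± 0.138 (95% interval -0.34 to 0.20, edgeR adjusted p = 0.999), an interval that leaves out changes of the size measured for Stmn2. Elavl3 (HuC, ENSMUSG00000003410) had 0.938 CPM in the lowest Wnt GOF library, a median of 1.21 and a highest of 2.73, against 1.03, 1.49 and 2.72 CPM in controls. Wnt GOF replicate 6 stood alone at the top of its group, and the groups overlapped over nearly their whole ranges (log2 fold change -0.19 ± 0.307, edgeR adjusted p = 0.999). In set 2 alone Elavl3 was at 1.15 to 1.40 CPM in Wnt GOF and 2.14 to 2.72 CPM in control libraries. Elavl3 shares 256 exon bases with Gm49318 on the same strand, so reads there could belong to either gene. Of the Hu transcripts per kilobase Elavl1, the form of all cells, took 84.2 ± 2.89% in Wnt GOF and 83.5 ± 1.65% in control ventricles, Elavl4 9.41 ± 2.49% and 9.76 ± 1.91%, and Elavl3 1.47 ± 0.614% and 1.66 ± 0.496%. None of the 4 Hu genes was called by edgeR, DESeq2 or limma-voom, and 0 had an unadjusted p under 0.05.

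Ngfr, the p75 neurotrophin receptor of crest cells, Schwann cell precursors and some neurons, was the only glial member with counts enough to test. Ngfr (ENSMUSG00000000120) had 1.59 CPM in the lowest Wnt GOF library, a median of 2.33 and a highest of 3.76, against 1.69, 2.98 and 3.8 CPM in controls. The ranges nearly coincided (log2 fold change -0.07 ± 0.257, 95% interval -0.58 to 0.43, edgeR adjusted p = 0.999). Within sets 1, 2 and 3 the log2 differences were 0.34, -0.73 and 0.12, with no common sign. Sox10 had 0, 0, 1, 3, 1 and 2 counts in Wnt GOF replicates 1 to 6 and 0, 1, 2, 1, 1 and 1 in control replicates 1 to 6, and its log2 fold change of 0.09 ± 0.841 (edgeR without a filter, adjusted p = 0.994) gives no direction at this depth. Of 18 genes of the Schwann cell precursor list, which holds Sox10 and Ngfr, 10 were tested, 0 were called by edgeR, DESeq2 or limma-voom and 0 had an unadjusted p under 0.05, with a median of -0.12. Erbb3, the neuregulin receptor on which these precursors depend, was at 9.94 to 15.8 CPM in Wnt GOF and 10.3 to 16.7 CPM in control libraries (log2 fold change -0.26 ± 0.141, edgeR adjusted p = 0.927), and Ednrb and Pmp22, which endothelial and other heart cells also express, were at -0.24 and 0.16.

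Tubb3 and Ngfr varied together from library to library. Over the 12 libraries their deviations from the group means correlated with r = 0.80 (permutation p = 0.00099, 0.0099 after adjustment over 10 pairs) and rho = 0.87 (adjusted permutation p = 0.00395). Libraries were shuffled freely across the sets, so this and the following permutation p-values can be too small. The value of r was 0.78 without the 2 libraries farthest from the median of Tubb3, and 0.54 once the means of each group within each set were removed. For Stmn2 and Tubb3 r was 0.70 (adjusted permutation p = 0.0514), rho 0.85 (adjusted 0.00395), r without the 2 farthest libraries 0.67, and 0.39 with the set means removed. For Stmn2 and Ngfr r was 0.64 (adjusted permutation p = 0.0863), 0.56 without the 2 farthest libraries and -0.06 with the set means removed. That removal takes out differences between the sets and also any difference between groups that varies with the set. In sets 1, 2 and 3 Tubb3 averaged 6.72, 8.24 and 12.2 CPM, Ngfr 2.06, 2.36 and 3.56 CPM and Stmn2 2.27, 5.44 and 6.78 CPM. Elavl4, at 7.57, 6.55 and 7.45 CPM in the sets, had an r of -0.10 to 0.24 with the other members. With the set means removed, r for Elavl4 and Tubb3 was 0.69, against 0.10 before.

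The genes most like the members across libraries were sought among 14351 genes, by Pearson's r of deviations over 12 libraries that share these sets. For the mean profile of Stmn2, Tubb3, Elavl3 and Elavl4 they were Pwwp2b (0.94), Wnt5a (0.93), Fads1 (0.93), Sorcs1 (0.92) and Emd (0.90). For Ngfr they were Emd (0.92) and, at 0.91 each, Cdh3, Trim6, Klc2 and Ergic1. Stmn2 alone, a profile chosen after its values were seen, was most like Reln (0.98), then the embryonic globin gene Hbb-bh1, the platelet integrin gene Itga2b and the red cell membrane gene Epb42 at 0.97, and Ermap, also of red cells, at 0.96.

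Genes with related roles were taken as 12 lists of nerve, glia and crest genes and their relatives, 153 genes in all, of which 85 were tested, 46 had a log2 fold change below 0 and 16 an unadjusted p under 0.05. Of all 14774 tested genes, 7324 lay below 0 and 931 had an unadjusted p under 0.05. Of the 85, 1 gene, Gfra1, passed edgeR's test, against 74 of 14774. DESeq2, whose calls in these lists are given below, called 0.930% of its 20746 genes. Of 25 genes of neuronal structure 21 were tested and 0 called, with an unadjusted p under 0.05 for 5 and a median of -0.09. The lowest p-values were those of the axon guidance mediator genes Dpysl3 (0.36 ± 0.0926, edgeR adjusted p = 0.156) and Crmp1 (-0.42 ± 0.142, 0.398), and of Scg2, a granin of secretory vesicles (1.13 ± 0.371, 0.377). Dpysl3 was at 690 to 716 CPM in 5 Wnt GOF libraries, 469 CPM in the library labelled Wnt GOF replicate 5 and 498 to 539 CPM in control libraries. DESeq2 called Dpysl3 (adjusted p = 0.0363), as did edgeR without that library (0.44, adjusted p = 0.000643) and with the sets as a block (0.35, adjusted p = 0.0285).

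Among 15 transcription factors of autonomic neurons 5 were tested, 0 were called by edgeR or DESeq2, and the median was 0.04. An unadjusted p under 0.05, as had 6.30% of all tested genes, was reached by 1. It was Isl1, also a gene of second heart field cells, at 1.55 to 2.87 CPM in 5 Wnt GOF libraries, 11.5 CPM in the library labelled Wnt GOF replicate 5 and 2.88 to 18.3 CPM in control libraries (log2 fold change -1.61 ± 0.620, edgeR adjusted p = 0.586). Without that library Isl1 fell (-2.42, edgeR adjusted p = 0.028), as it did with the haemoglobin level as a covariate (-1.68, 0.00354). That covariate was added after the data were seen, so the p of its fit can be too small. Hand1 and Hand2, which heart muscle also expresses, were at 0.25 and 0.15, and Tlx2, Tlx3, Hmx2 and Hmx3 had no count in any library. Of 18 genes of autonomic transmission 7 were tested and 0 called by edgeR, with a median of 0.01. For 3 the unadjusted p was under 0.05, against 6.30% of all tested genes. The neuropeptide gene Gal was at 36.6 ± 20.8 CPM in Wnt GOF and 8.12 ± 3.31 CPM in control ventricles (2.17 ± 0.437, edgeR adjusted p = 0.0637, DESeq2 adjusted p = 0.00021). Without the library labelled Wnt GOF replicate 5, which had 10.3 CPM against 22.6 to 63.3 in the others of its group, Gal rose in edgeR (2.36, adjusted p = 0.00235), and with the sets as a block its adjusted p was 0.0495. The choline transporter gene Slc5a7 was at -0.76 ± 0.320 and the acetylcholinesterase gene Ache at 0.66 ± 0.270 (edgeR adjusted p = 0.678 and 0.628). Dbh, the enzyme that makes noradrenaline and named here after its values were seen, had 3 to 10 counts in Wnt GOF and 5 to 21 in control libraries.

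Of 19 neurotrophic factors and receptors, among them Ngfr, 9 were tested, 1 rose and 0 fell, with a median of -0.07. For 2 the unadjusted p was under 0.05. Of all tested genes 0.501% were called and 6.30% had an unadjusted p under 0.05. Gfra1, the coreceptor through which GDNF acts on Ret, was at 18.3 to 21.6 CPM in 5 Wnt GOF libraries, 5.77 CPM in the library labelled Wnt GOF replicate 5 and 2.98 to 7.30 CPM in controls. Its log2 fold change was 1.70 ± 0.279 (edgeR adjusted p = 0.0145, and 7.53e-06 without that library), although limma-voom and the fit with summed pairs did not call it. Ntrk2, the receptor of brain-derived neurotrophic factor, was at 0.885 ± 0.661 CPM in Wnt GOF and 2.83 ± 1.5 CPM in control ventricles (-1.66 ± 0.454, edgeR adjusted p = 0.205). Ntrk2 fell in DESeq2 (-1.68, adjusted p = 0.0251) and in edgeR without the library labelled Wnt GOF replicate 5 (-2.08, adjusted p = 0.0287), with the sets as a block (-1.68, 0.00575) and with the haemoglobin covariate (-1.70, 0.00301). Sets and covariate were taken from these same data, so the p of those fits can be too small. Ntf3, the gene of neurotrophin 3, was at -0.14 ± 0.141, and Ret and Gdnf did not pass the filter. Ntrk2 was lowest in Wnt GOF replicates 1, 2 and 6, at 0.311, 0.293 and 0.517 CPM.

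Of 16 transcription factors of the neural crest 10 were tested and 0 called by edgeR, with a median of -0.13. For 2 the unadjusted p was under 0.05, against 6.30% of all tested genes. Msx2, which heart mesenchyme also expresses, was at 1.82 ± 0.436 (edgeR adjusted p = 0.133, DESeq2 adjusted p = 0.0224, and 0.00229 in edgeR at 2.04 without the library labelled Wnt GOF replicate 5), Ets1, also an endothelial gene, at -0.54 ± 0.231 and Snai1 at -0.28 ± 0.234. Of 8 melanocyte genes, another crest lineage, 3 were tested and 0 called by edgeR, DESeq2 or limma-voom, with 0 at an unadjusted p under 0.05 (Mlana -0.21, Kit 0.13 and Mitf -0.08). None of the 13 transcription factors of the central nervous system and sensory ganglia passed the filter, and Olig2, Neurog1, Neurog2 and Neurod1 had no count in any library. Summed, these 13 gave 1.21 to 2.71 CPM in Wnt GOF and 1.09 to 2.39 CPM in control libraries.

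**Figure D5:**
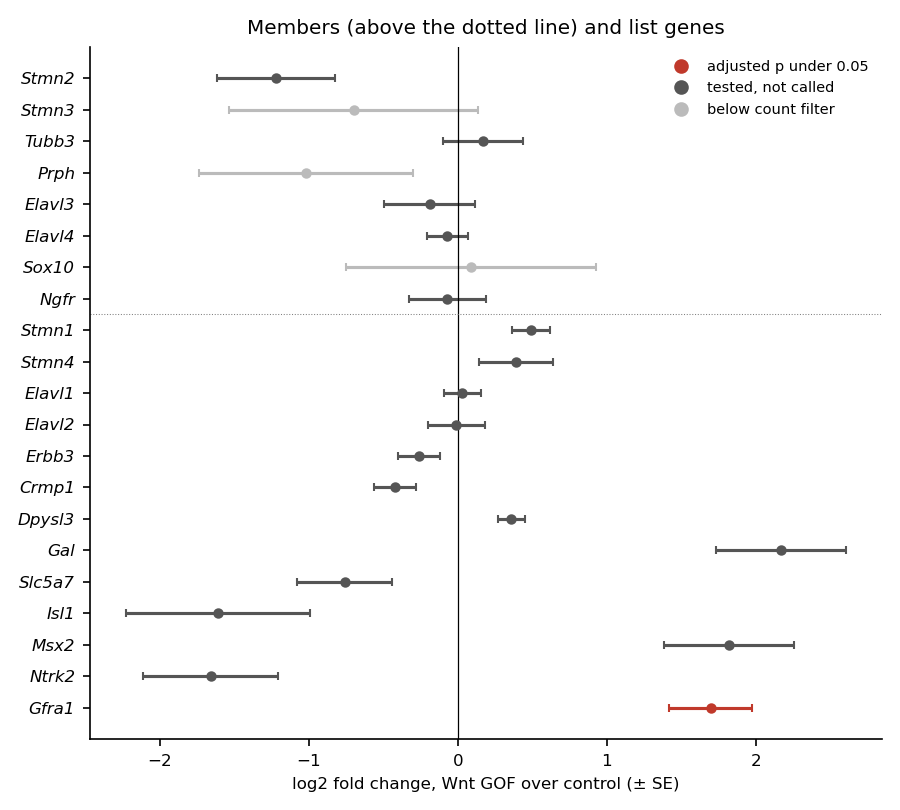
Log2 fold change of Wnt GOF over control with its SE for the 8 members (above the dotted line) and for relatives and list genes, from edgeR, with genes below the count filter in light grey. Stmn2 at -1.22 is the tested member farthest from 0, and Gfra1 at 1.70 is the gene with an adjusted p under 0.05.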

How the data were processed

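Trizol was used for RNA and an Illumina protocol for the libraries, per the labels' protocols. Subread, featureCounts and edgeR are named in the submitters' processing notes, with no versions. The build, annotation and strand setting are not given in the sources used. The deposited values are whole-number counts of reads by Ensembl gene, per the file headers, in 41422 lines for 40800 genes. The 622 lines left out repeat a gene with identical counts. GC percent is a deposited annotation column and was not used, per the file headers. A second deposited table holds the authors' log2 fold changes and log2 expression, a log-odds score, p-values and adjusted p-values, per the file headers. Its log2 fold change and adjusted p for Stmn2 alone are printed.

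Counts were scaled by TMM and tested with robust quasi-likelihood fits in edgeR 4.0.16 (R 4.3.3), Wnt GOF over control, over 14774 genes that passed filterByExpr (minimum count 10), with Benjamini-Hochberg adjustment. The SE is the size of the log2 fold change divided by the square root of F, and 95% intervals are 1.96 SE to either side. CPM per kb uses exon lengths of GENCODE M21, which need not be the authors' annotation. Log2 CPM for correlations used a prior count of 2. Permutation p-values used 100000 resamples that shuffled all 12 libraries without regard to group or set. Alternatives were DESeq2 1.42.0, limma-voom (limma 3.58.1), other scalings and filters, the replicate number as a block, library sets as a block, the closest pairs summed, haemoglobin genes left out and each library left out. Haemoglobin as a covariate, and set means removed from correlations, haemoglobin included, were added after seeing these data. The sets were also found in these data, so adjusted p-values with the sets or the covariate can be too small for any gene. The 3 sets came from average-linkage clustering of correlations between deviations from group means. The 3 closest pairs were Wnt GOF 1 and 2, Wnt GOF 3 and 4, and control 2 and 3. Their mean chi-square per gene was 3.07 to 3.32, and that of the next closest pair 12.8, where sampling noise alone gives about 1. Repeat preparations of 1 sample can also exceed that noise, so these values cannot tell whether the paired libraries are independent. All 12 libraries were counted, and p-values that take them as independent can be too small.

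The members and lists were chosen with earlier results of these data known. Named were the members, their 4 gene families, the 3 lowest p of each other list, Axin2 and the 5 genes most like each profile, with Stmn2 alone as an added profile and a few markers picked with their values in view. Only 4 neuronal members and Ngfr passed the filter, so those profiles rest on them. Same-numbered libraries did not deviate together (correlations from -0.39 to 0.48), so the numbers do not pair them. Some marker genes are not reported here.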

Additional observations from a re-analysis of the deposited data

Results flagged for a closer look

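Of 10 groups of 6 libraries (5 tested members in Wnt GOF and in control), 2 had a library far from the rest by Dixon's test. Chance alone gives such a library in about 1 in 20 groups. Stmn2 was 6.51 CPM in the library labelled Wnt GOF replicate 5, the highest of its group, where the others lay between 1.16 and 3.06 CPM, with a gap of 0.646 of the range. That library also had the highest haemoglobin share, 8.73%, and Axin2 at the control level of 3.77 CPM. Elavl3 was 2.73 CPM in Wnt GOF replicate 6, against 0.938 to 1.40 CPM in the others of that group, with a gap of 0.741 of the range. The highest control library, replicate 5, had 2.72 CPM of Elavl3.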

How the results depend on the processing

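Stmn2 kept its sign in each of 24 alternatives. It passed the threshold in 3 of them, with the sets as a block (-1.23), with the haemoglobin covariate (-1.25) and without Wnt GOF replicate 5. Leaving out 1 library at a time gave -1.63 to -1.06, and adjusted p over all alternatives ran from 0.002 to 0.98. With the replicate block, where 47 genes were higher and 8 lower, Stmn2 was at -1.27 (edgeR adjusted p = 0.203). Tubb3 and Elavl4 kept their sign throughout. Leaving out 1 library gave -0.47 to 0.00 for Elavl3 (0.00 without control replicate 5) and -0.21 to 0.04 for Ngfr (0.04 without Wnt GOF replicate 4 or control replicate 1). With set means removed, r turned to -0.06 for Stmn2 and Ngfr (0.64 before), -0.84 for Stmn2 and Elavl3 (0.41), -0.29 for Tubb3 and Elavl3 (0.35) and -0.03 for Elavl3 and Ngfr (0.53), and for haemoglobin with Elavl3 to -0.79 (0.41), with Ngfr to -0.03 (0.39) and with Elavl4 to 0.42 (-0.09). Elavl4 gave 0.16 with Stmn2 (-0.10) and 0.13 with Elavl3 (-0.02). Genes called higher numbered 64, and 168 in DESeq2, 15 in limma-voom, 97 without a filter, 195 with the sets, 0 with summed pairs (600 genes in either direction at an unadjusted p under 0.05), 8 at an adjusted p under 0.01 and 34 to 149 without 1 library. Genes called lower numbered 10, and 25 in DESeq2, 100 with the sets, 1 with summed pairs, 23 with the haemoglobin covariate, 2 at 0.01 and 4 to 28 without 1 library. The extremes 149 and 28 were without Wnt GOF replicate 5. In the stathmin list calls numbered 0, and 1 in DESeq2, 2 with the sets, 1 with the covariate and 0 to 2 without 1 library. The neuronal structure list had 1 call in DESeq2 and 1 with the sets, the transmission list likewise 1 and 1, and the crest list 1 in DESeq2. The autonomic factor list had 1 with the covariate. Without 1 library, the tubulin, neuronal structure, autonomic factor, transmission and crest lists had 0 to 1 calls. Neurotrophic genes had 1 call, and 2 in DESeq2, with the sets or with the covariate, 0 in limma-voom or with summed pairs, and 1 to 2 without 1 library. Summed pairs leave 9 libraries; other causes were not tested. Stmn3, Prph and Sox10, at 0 to 5 counts a library, are limited by depth.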
